A study of Vitis vinifera with 2 samples.

Results

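Of 299 predicted miRNAs in the grapevine small RNA table, 55 were described that had a mature sequence of 22 nt or more and at most 1 precursor number in each library. They comprised 28 sequences of 22 nt and 27 of 23 nt, and none was longer than 23 nt. The table held 69 entries of 22 nt or more in all. Of these, 13 with several precursors were not included, and novel_mir_114, of 1 precursor, was left out by name. The libraries came from micropropagated plantlets of Vitis vinifera 'Muscat Hamburg' that were 6 weeks old and grew on 1/2 B5 medium. The CT (cold-treated) library was made from plantlets placed for 4 h at 4°C, and the NCT (none cold-treated) library from plantlets kept at 26°C and harvested at 0 h. Each library pooled 3 plantlets. The tissue is labelled leaf and is described in the methods as the shoot apex with 1 developed leaf, and it was not checked against marker genes here because the table lists miRNAs alone. With 1 library per condition, no difference in reads has a replicate check here. Every test on reads compares these 2 libraries and not the conditions.

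Plant miRNAs are cut by a Dicer-like enzyme from the stem of a hairpin precursor and guide an Argonaute protein to RNAs with a nearly complete complementary site. Most are 21 nt long and begin with U, the first base preferred by AGO1. A miRNA of 22 nt can start the production of secondary small interfering RNAs from its target, while sequences with other first bases are often bound by other Argonautes. The 5p and 3p arms are the 5′ and 3′ sides of the hairpin stem.

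The members with the most reads, and those whose sequence relates to another entry, are printed to let their first base and length be read beside the values. The table writes T for U, capitals mark the seed (bases 2 to 8), and each line runs 5′ to 3′. The members of 22 nt are these:
novel_mir_87: tCCCAGGAgagatggcacctgc
novel_mir_66: tCTGAACTctctccctcatggc
novel_mir_286: aGATGATGtatggaatgaaatt
novel_mir_10: tGAAGAGGtggagagtggagtg
novel_mir_14: tGAATAGGaagagggaggaaca
novel_mir_101: tTCCATGAtggtagggcctatt
novel_mir_239: tATTGGGGgtctgggaaaggta
novel_mir_47: cCAAGACAtgaagaccaccact
novel_mir_255: tCGTTTGGgggatgtaaaggac
novel_mir_95: tATTCCTTgatattgcatgttt
novel_mir_12: tGAAGAGGtggagagggtggat

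The members of 23 nt that carried the most reads or that overlap another sequence are these, with the same marking:
novel_mir_120: cTTCAGTGagtgtggcgtcaacg
novel_mir_82: tTATTAGGaggacatttaggtat
novel_mir_123: aGGACAACcaagctggatgccat
novel_mir_274: cTTTGGAGgagatgaggacaagt
novel_mir_67: tCTGAACTctctccctcattggc

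The 55 members had 53 different seeds, and 2 seeds were each shared by a pair of members. One pair was novel_mir_66 and novel_mir_67, and the other was novel_mir_10 and novel_mir_12. None of the members lay within 2 mismatches of a known grapevine miRNA over at least 18 nt, among 162 known miRNAs compared. The 162 held 101 different sequences. The study had classed sequences with at most 2 mismatches as known and predicted miRNAs from the rest. The result was thus largely set before the comparison.

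Reads of the 22 nt members far outnumbered those of the 23 nt members. The 22 nt members summed to 10692 reads in CT, which was 10.96% of the reads in the table, against 6263 reads or 6.74% in NCT. The 23 nt members summed to 372 reads in CT and 264 reads in NCT, or 0.381% and 0.284% of the table. Scaled to TPM, the reads per 1000000 clean reads, the 22 nt members reached 413 TPM in CT and 293 TPM in NCT, and the 23 nt members 14.4 TPM in CT and 12.4 TPM in NCT. The 22 nt sum was carried by novel_mir_87, which held 80.9% of it in CT and 74.9% in NCT. Without novel_mir_87, the 22 nt members summed to 78.8 TPM in CT and 73.7 TPM in NCT. The NCT sum also depended on the exclusion by name, since novel_mir_114 had 4288 reads in NCT and was not listed in CT, and 22 nt reads in NCT would be 10551 with it.

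Most members were read only a few times. The median count among listed 22 nt members was 26 reads in CT and 14.5 reads in NCT, and among listed 23 nt members 10 reads in CT and 10.5 reads in NCT. Of the 22 nt members, 15 of 28 (53.6%) stayed under 20 reads in both libraries, as did 23 of 27 (85.2%) of the 23 nt members and 115 of 184 (62.5%) of the 21 nt entries with at most 1 precursor. Only 4 members, all of 22 nt, exceeded 10 TPM in a library: novel_mir_87, novel_mir_66, novel_mir_286 and novel_mir_10.

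A minority of the members of each length were listed in both libraries. Of the 22 nt members, 8 were listed in both, 10 (35.7%) in CT only and 10 (35.7%) in NCT only. Of the 23 nt members, 5 were listed in both, 13 (48.1%) in CT only and 9 (33.3%) in NCT only. Over the whole table, 29.8% of entries were listed in CT only and 35.8% in NCT only. The 21 nt entries with at most 1 precursor held 65 of 184 (35.3%) in both libraries, 57 (31.0%) in CT only and 62 (33.7%) in NCT only. An entry appears only where a hairpin was predicted and reads were listed, and the lowest count in either library was 5. A count of 0 therefore means not listed rather than absent, and no fold is given against it.

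**Figure D1:**
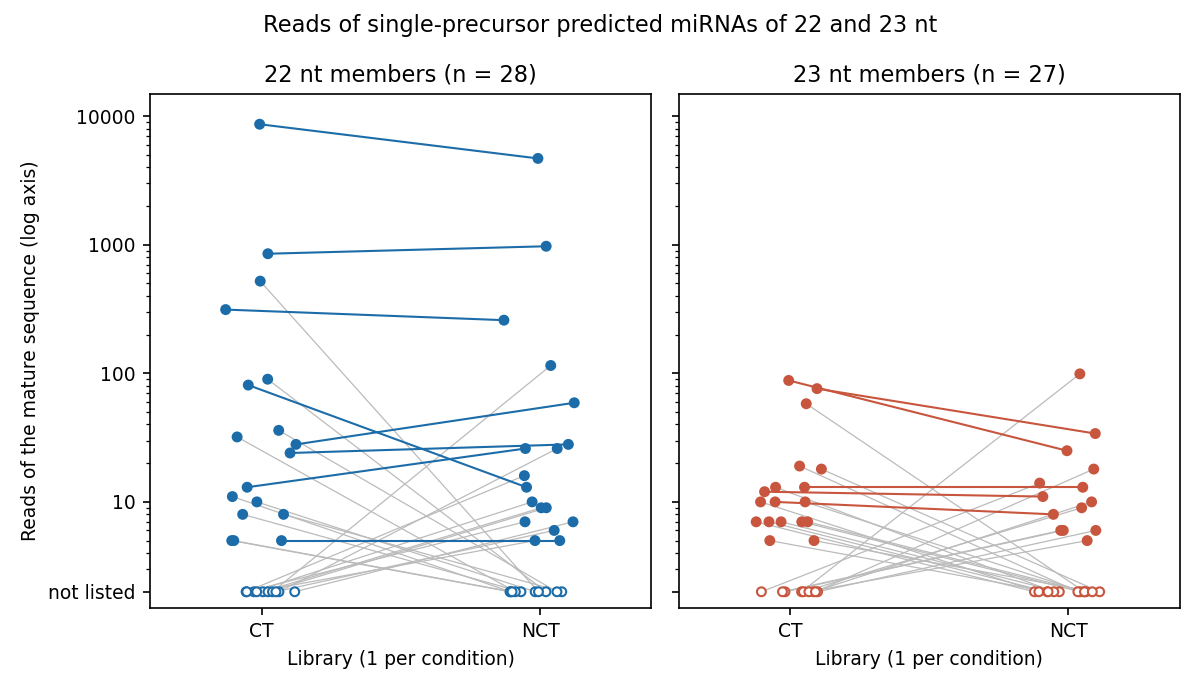
Reads of each member in CT and NCT on a log axis, 22 nt members at left and 23 nt members at right, with lines joining a member's libraries, coloured where it was listed in both, and open points at the base for members not listed. Counts of 22 nt members reached 8651 in CT and 4690 in NCT, while those of 23 nt members did not exceed 88 in CT and 99 in NCT.

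First base and arm were then counted by length. Of the 22 nt members, 19 of 28 (67.9%) began with U, 4 with A, 4 with C and 1 with G. Of the 23 nt members, 11 of 27 (40.7%) began with U, 8 (29.6%) with A, 4 with C and 4 with G. Among the 21 nt entries with at most 1 precursor 121 of 184 (65.8%) began with U, and 183 of all 299 entries (61.2%) did. The 22 nt class thus stood near the 21 nt class, and the 23 nt class held a smaller share of U, a difference that was not tested.

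All 8 of the 22 nt members listed in both libraries began with U. So did 5 of the 10 listed in CT only and 6 of the 10 listed in NCT only. U began 67 of 103 entries of the whole table listed in both libraries. It began 52 of 89 in CT only and 64 of 107 in NCT only. Among the 21 nt entries with at most 1 precursor, these counts were 42 of 65, 40 of 57 and 39 of 62. The difference by listing among the 22 nt members was not tested. By reads, sequences with a first U held 10112 of the 22 nt reads (94.6%) in CT and 6096 (97.3%) in NCT. Over the whole table they held 51.2% of reads in CT and 49.8% in NCT. Most of the 22 nt reads with a first U were of novel_mir_87. Without it, sequences with a first U held 1461 of 2041 reads (71.6%) in CT and 1406 of 1573 (89.4%) in NCT. Of the other reads in CT, 521 came from novel_mir_286, which begins with A. Among 23 nt members, sequences with a first C held 178 reads (47.8%) in CT, and those with a first A held 136 reads (51.5%) in NCT. The 23 nt shares rest on few sequences, since novel_mir_120 with 88 reads and novel_mir_274 with 58 reads both begin with C, and novel_mir_123 with 99 reads begins with A.

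The 5p arm gave 21 of 28 (75.0%) of the 22 nt members, 14 of 27 (51.9%) of the 23 nt members and 106 of 184 (57.6%) of the 21 nt entries. By reads, the 5p arm held 99.7% of the 22 nt class in each library, and without novel_mir_87 98.2% in CT and 98.8% in NCT. Over the whole table it held 82.2% of reads in CT and 70.6% in NCT. In the 23 nt class, 5p members held 163 reads (43.8%) in CT and 191 reads (72.3%) in NCT. The 23 nt members listed in CT only comprised 5 from the 5p arm and 8 from the 3p arm, against 6 and 3 of those listed in NCT only. Over the whole table, the 5p arm gave 58.4% of entries listed in CT only and 56.1% of those listed in NCT only. The difference among the 23 nt members was not tested. All 13 members listed in both libraries were assigned to the same arm in each.

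**Figure D2:**
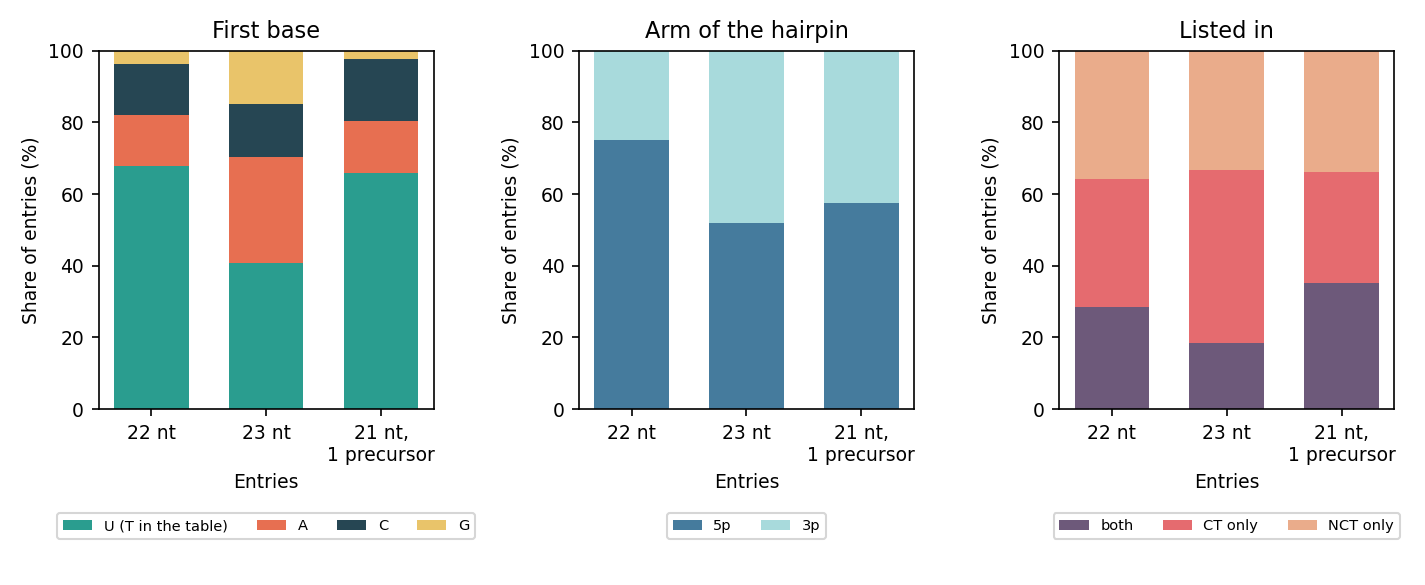
Share of entries (%) by first base, arm and library listing for the 22 nt members (n = 28), the 23 nt members (n = 27) and the 21 nt entries with at most 1 precursor (n = 184). U began 67.9%, 40.7% and 65.8% of them, and the 5p arm gave 75.0%, 51.9% and 57.6%.

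For the 13 members listed in both libraries, the log2 ratio of CT to NCT was taken after division by clean reads. The 8 members of 22 nt had a median log2 of -0.38, with a range of -1.35 to 2.36. The 5 members of 23 nt had a median of 0.04, with a range of -0.28 to 1.54. The median over all 103 entries listed in both was -0.41, and 4 of the 8 and 5 of the 5 lay above it. Median-of-ratios and TMM factors were computed from counts of the predicted miRNAs alone, a small part of the clean reads. Median-of-ratios scaling sets the median of the 103 entries to 0 by design, and TMM put it at 0.002. Each thus moved that median by 0.41. The 22 nt median became 0.03 with median-of-ratios factors and 0.04 with TMM, and the 23 nt median 0.45 and 0.46.

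A member was called at a log2 over 1 in size and an adjusted p at or under 0.001, by a two-sided Fisher's exact test with Benjamini-Hochberg adjustment over the 103 entries. By this rule 2 of the 13 members were higher in CT, beside 3.88% of all entries tested, and 1 was lower in CT, beside 7.77%. With median-of-ratios or TMM factors, 4 members were higher and 0 lower, and the split over all entries went to 7 higher and 2 lower, against 4 higher and 8 lower by clean reads. With edgeR's exact test and an assumed coefficient of variation of 0.4, no member and no other entry was called. By that test 1 of the 13 members (novel_mir_14) had an unadjusted p under 0.05, beside 4 of all 103 entries.

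The most abundant member, novel_mir_87, had 8651 reads in CT and 4690 reads in NCT. This was 334 TPM (95% Wilson interval 327 to 341) in CT and 219.6 TPM (213 to 226) in NCT. All intervals here hold the error of counting alone, and reads copied by PCR without molecular identifiers are not independent molecules. The CT library was thus the higher, with a log2 of 0.60 ± 0.026 (counting SE) and an adjusted p of 1.26e-120 by Fisher's exact test, short of the log2 limit of 1. With median-of-ratios and TMM factors, its log2 was 1.01 and 1.02, past the limit.

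Novel_mir_66 had 851 reads in CT and 973 reads in NCT, or 32.8 TPM (30.7 to 35.1) in CT and 45.6 TPM (42.8 to 48.5) in NCT. It was lower in CT by clean reads, with a log2 of -0.47 ± 0.068 and an adjusted p of 2.37e-11 by Fisher's exact test. This log2 was close to the median of all entries, and it became -0.06 under both median-of-ratios and TMM scaling. Novel_mir_67, a 23 nt member, had 10 reads in CT and 8 in NCT. It shares its first 19 nt and its seed with novel_mir_66, and their precursors carry neighbouring numbers in both libraries, 70 and 69 in CT and 89 and 88 in NCT. Read as 1 sequence, the pair had 861 reads in CT and 981 in NCT, with a log2 of -0.47.

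Novel_mir_10 had 313 reads in CT and 259 reads in NCT. These were 12.1 TPM (10.8 to 13.5) in CT and 12.1 TPM (10.7 to 13.7) in NCT, overlapping throughout. Its log2 was -0.01 ± 0.12, with an interval of -0.24 to 0.23, and it turned to 0.40 with median-of-ratios factors and 0.41 with TMM. Novel_mir_14 had 81 reads in CT and 13 reads in NCT. Its 3.13 TPM (2.51 to 3.88) in CT lay apart from 0.609 TPM (0.356 to 1.04) in NCT, the highest ratio among the members, with a log2 of 2.36 ± 0.43 and an adjusted p of 8.62e-10 by Fisher's exact test.

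Both sequences lie in hairpins that also contain a known miRNA of the miR169 family, which targets transcripts of NF-YA transcription factors. Novel_mir_10 occupies positions 11 to 32 of its 159 nt hairpin, and the mature sequence shared by vvi-miR169a, c, j, k, s and w follows directly at positions 33 to 53. Novel_mir_14 occupies positions 11 to 32 of its 135 nt hairpin, and vvi-miR169v follows directly at positions 33 to 53. The known sequences, and an entry with 2 precursors that resembles novel_mir_10, are shown so that the adjoining members can be read against them:
vvi-miR169a: cagccaaggatgacttgccgg
vvi-miR169v: aagccaaggatgaattgccgg
novel_mir_11: tGAAGAGGttgagagtggaatg

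The known miR169 reads were not analysed here. Novel_mir_11 shares the seed of novel_mir_10 and differs from it by T10G and A20G, in which novel_mir_11 gives the first base and positions start at 1 at the 5′ end. It had 48 reads in CT and 49 in NCT, with a log2 of -0.31 ± 0.29. Novel_mir_12, listed in NCT only with 9 reads, shares the first 15 nt of novel_mir_10. Novel_mir_13, an entry of 22 nt with 2 precursors that resembles novel_mir_10 at its 5′ end, was not listed in CT and had 31 reads in NCT. Novel_mir_49, an entry of 21 nt, shares the seed and the first 10 nt of novel_mir_10, and had 9 reads in NCT only. Of the sequences listed in both libraries, novel_mir_14 was called, while novel_mir_10 and novel_mir_11 were not. Novel_mir_12, novel_mir_13 and novel_mir_49 could not be tested.

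Novel_mir_101 was the member called lower in CT. It had 28 reads in CT and 59 reads in NCT, or 1.08 TPM (0.748 to 1.56) in CT and 2.76 TPM (2.14 to 3.56) in NCT. The log2 was -1.35 ± 0.33, with an adjusted p of 0.000156 by Fisher's exact test, and it fell short of the limit at -0.94 with median-of-ratios and TMM factors. Novel_mir_134 had 13 reads in CT and 26 in NCT, with a log2 of -1.28 ± 0.49 and an adjusted p of 0.0298 by Fisher's exact test, which did not pass. The other members of 22 nt in both libraries were novel_mir_63, with 24 reads in CT and 28 in NCT, and novel_mir_88, with 5 in each.

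Of the 23 nt members, novel_mir_120 was the one called. It had 88 reads in CT and 25 reads in NCT, or 3.40 TPM (2.76 to 4.18) in CT and 1.17 TPM (0.793 to 1.73) in NCT. It was higher in CT by a log2 of 1.54 ± 0.33, with an adjusted p of 3.01e-06 by Fisher's exact test. Novel_mir_82 had 76 reads in CT and 34 reads in NCT, or 2.93 TPM (2.34 to 3.67) in CT and 1.59 TPM (1.14 to 2.22) in NCT. Its log2 of 0.88 ± 0.30 missed the limit, with an adjusted p of 0.0112 by Fisher's exact test, and was 1.29 with median-of-ratios and TMM factors. Novel_mir_138, also of 23 nt, had 12 reads in CT and 11 in NCT.

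**Figure D3:**
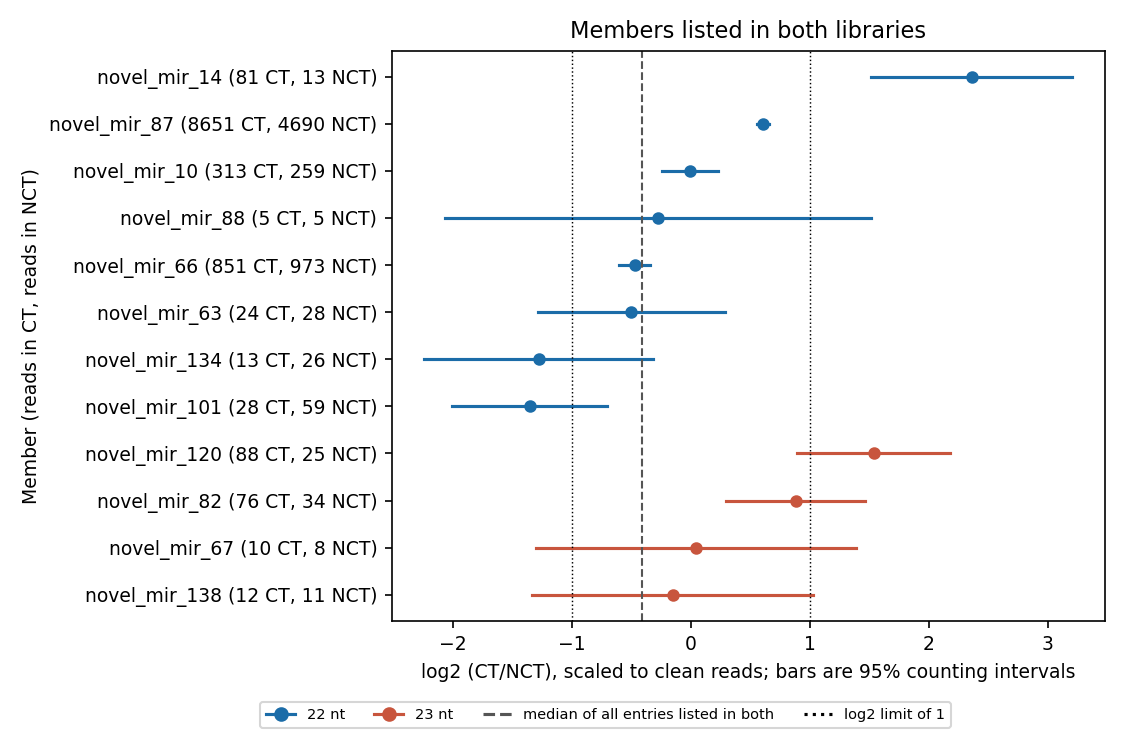
The log2 ratio of CT to NCT for 12 of the 13 members listed in both libraries, with 95% counting intervals, 22 nt members above and 23 nt members below, dotted lines at a log2 of 1 in size and a dashed line at the median of all 103 entries (-0.41). Novel_mir_14 at 2.36 and novel_mir_120 at 1.54 lie right of the limit, and novel_mir_101 at -1.35 and novel_mir_134 at -1.28 left of it.

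Among members listed in CT only, novel_mir_286 stood highest with 521 reads, or 20.1 TPM (18.4 to 21.9). The study, under another name, called this sequence upregulated from these same libraries. By real-time RT-PCR, scaled to the level before the cold, it reported a rise in the cold and then a fall. The sequence was thus measured in untreated plantlets too. The study also reported a cleavage site in a predicted target by 5′ RLM-RACE. Novel_mir_239 had 90 reads, or 3.47 TPM (2.83 to 4.27), and the 23 nt novel_mir_274 had 58 reads, or 2.24 TPM (1.73 to 2.89). These 3 were the members with 50 or more reads in CT that NCT did not list. Novel_mir_288 with 36 reads and novel_mir_287 with 32 reads, also 22 nt and CT only, carry the precursor numbers 197 and 196, next to 195 of novel_mir_286. The remaining 6 of 22 nt and 12 of 23 nt had 5 to 19 reads, novel_mir_255 with 11 reads being the highest 3p member of 22 nt.

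Among members listed in NCT only, the highest were novel_mir_47 of 22 nt with 115 reads, or 5.39 TPM (4.49 to 6.46), and novel_mir_123 of 23 nt with 99 reads, or 4.64 TPM (3.81 to 5.64). The other members of 22 nt had 5 to 26 reads and those of 23 nt 5 to 18 reads. Most members listed in a single library were thus near the lowest listed count, where the listing itself can turn on a few reads.

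For some of these members, the other library listed a sequence that differs by an end. Novel_mir_274, in CT only, contains the whole of the 21 nt novel_mir_152, which had 49 reads in NCT and was not listed in CT. Novel_mir_95, with 7 reads in NCT only, likewise contains the 21 nt novel_mir_251, which had 10 reads in CT only. The shorter sequences are shown for comparison with the members above:
novel_mir_152: tttggaggagatgaggacaag
novel_mir_251: tattccttgatattgcatgtt

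Summed over both lengths, a choice made after seeing the data, the first pair had 58 reads in CT and 49 reads in NCT, with a log2 of -0.04 ± 0.28. The second pair had 10 reads in CT and 7 in NCT, with a log2 of 0.24 ± 0.71. For novel_mir_274 and novel_mir_95, most of the sequence was thus read in the library that did not list the member itself.

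Hairpins were located on the 12X genome of PN40024 for 11 of the 55 members, 8 of 22 nt and 3 of 23 nt, on 8 chromosomes. All 11 had 50 or more reads in a library. Intergenic sequence is the annotation of 10 of the hairpins, and coding sequence that of novel_mir_239. Lengths were 71 to 361 nt (median 111), and folding energies ran from -83.9 to -19.9 kcal/mol. Between 16 and 22 bases of the mature sequence were paired (median 18), and 9 of the 11 folded into a single loop. The study's prediction required at least 16 base pairs between a miRNA and the facing strand, and set a limit on hairpin energy. The fewest pairs and the weakest energy were thus largely bounded in advance.

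The hairpin of novel_mir_87 spans chr17:5928104-5928188 on the plus strand, and that of novel_mir_66 chr14:24560621-24560731 on the minus strand. Novel_mir_10 lies in chr11:16101897-16102055 and novel_mir_14 in chr11:16468004-16468138, both on the plus strand. Novel_mir_286 lies in the shortest length seen, 71 nt at chr8:22256980-22257050 on the plus strand, with the weakest energy of -19.9 kcal/mol. Novel_mir_47 has a hairpin of 71 nt as well, at chr13:17730048-17730118 on the minus strand with -22.4 kcal/mol. These were the shortest hairpins of the 11 and had the weakest total energies. They gave the most abundant member listed in CT only and the most abundant listed in NCT only. Per nt, the weakest energy was that of novel_mir_101, at -0.213 kcal/mol, against -0.280 for novel_mir_286 and -0.315 for novel_mir_47. The other located members listed in a single library, novel_mir_239 and novel_mir_123, had total energies of -41.3 and -71.1 kcal/mol. Novel_mir_101 has the longest hairpin, 361 nt at chr18:28600683-28601043 on the minus strand, with 2 loops.

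Of the 23 nt members, novel_mir_82 lies in the 3p arm at chr16:14895040-14895117 on the minus strand, with 22 of its 23 bases paired. Novel_mir_123 lies at chr1:3736445-3736574 on the minus strand with 20 of 23 paired, and novel_mir_120 at chr1:18514146-18514300 on the plus strand with 16 of 23 paired. The called 23 nt member had the fewest paired bases of the 11, a count equal to the minimum that the study's prediction required.

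Other members lay on or opposite a hairpin that also holds another miRNA sequence. The hairpin of novel_mir_239, at chr14:23394906-23394996 on the minus strand, is the opposite strand of the known precursor of miR3632. The complement of vvi-miR3632 lies at positions 7 to 28 and overlaps 18 nt of novel_mir_239 at positions 11 to 32, and that of vvi-miR3632* lies at positions 62 to 83. These known sequences are shown so that the overlap can be read as a complement:
vvi-miR3632: tttcccagacccccaataccaa
vvi-miR3632*: ggattgggggccgatggaaagg

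Novel_mir_274 falls at positions 301 to 323 of the 332 nt hairpin of novel_mir_152 (chr5:15063427-15063758, minus strand), whose own mature sequence takes positions 302 to 322.

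**Figure D4:**
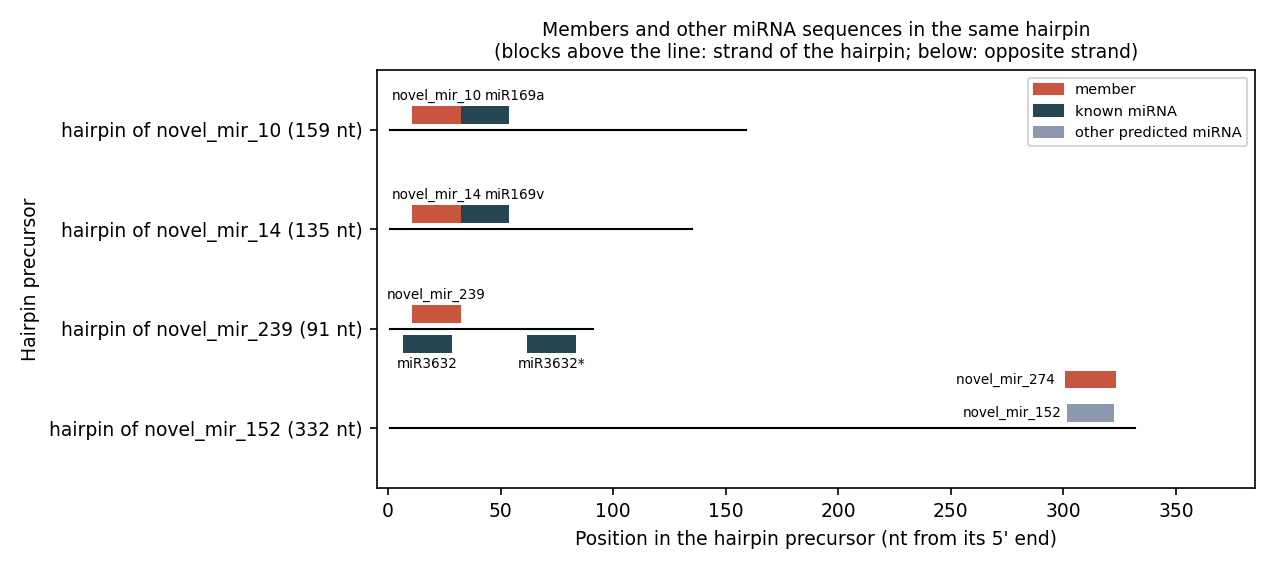
Positions (nt from the 5′ end) of members and of other miRNA sequences in 4 hairpins, with blocks above a line on the strand of the hairpin and blocks below it on the opposite strand. Novel_mir_10 and novel_mir_14 end at position 32 and the miR169 sequences begin at 33, while novel_mir_239 lies opposite miR3632 and novel_mir_274 spans novel_mir_152.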

How the data were processed

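The authors removed adaptors, kept reads of 18 to 30 nt, used SOAP2 to map them without mismatch to the 12X assembly of PN40024, took out those matching rRNA, tRNA, other non-coding RNAs or known precursors, and predicted miRNAs with Mireap. Tool versions are not given in the sources used here. The deposited values are raw counts of reads per mature sequence, with precursor numbers as text. The table lists 192 entries and 97572 reads for CT and 210 entries and 92912 reads for NCT. TPM used the clean reads given with the study, 25915815 in CT and 21355400 in NCT, so that 1 read was 0.0386 TPM in CT and 0.0468 TPM in NCT. Names are those of the deposited table and differ from the study's names for the same sequences in some cases. Hairpin and known sequences and 12X coordinates came from copies of supplementary tables, matched by whole sequence. Those copies hold 65 located hairpins, 162 known miRNAs and 103 known precursors, and no overlap test was made on them. The intergenic or coding annotation of hairpins came from the same tables.

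One result on a member is not reported here. Members and lists were chosen with earlier results of these data known. Named by rule were the 3 highest counts per library and length class, counts of 50 or more, called members, members within 2 mismatches of a known miRNA, members sharing 16 nt with another entry, and the highest count per arm and length class, giving 15 names. Novel_mir_12, novel_mir_63, novel_mir_88, novel_mir_134, novel_mir_138, novel_mir_262, novel_mir_287 and novel_mir_288 were added after values or sequences were seen. So were the non-members novel_mir_13 and novel_mir_49, the searches of hairpins for other miRNAs, and sums over overlapping sequences.

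Each entry listed in both libraries was compared by a two-sided Fisher's exact test against the other clean reads, adjusted by the Benjamini-Hochberg method over 103 entries. No dispersion can be estimated from 1 library per condition, which the quasi-likelihood test of edgeR needs, so edgeR's exact test with an assumed coefficient of variation of 0.4 was run as an alternative. Fisher's test was checked on simulated counts with known changes, which held counting error only. Alternatives were other library totals, median-of-ratios and TMM factors, minimum counts, the fold alone and a log2 limit of 1.5. Hairpins were folded with ViennaRNA 2.7.2 at 37°C. Python 3.11.15, scipy 1.17.1, pandas 2.3.3, R 4.3.3 and edgeR 4.0.16 were used.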

Additional observations from a re-analysis of the deposited data

How the results depend on the processing

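With 2 members higher and 1 lower in CT by clean reads, median-of-ratios and TMM factors gave 4 higher and 0 lower, and edgeR's exact test with an assumed coefficient of variation of 0.4 gave 0 and 0, with a lowest adjusted p among members of 0.724. The fold alone gave 2 lower, beside 17.5% of all entries listed in both libraries. A log2 limit of 1.5 gave 0 members lower, beside 3 of all entries. Totals of mapped or raw reads, and minimum counts of 20 or 50 reads, kept both counts. Members listed in CT only numbered 23, against 5 with at least 20 reads and 3 with at least 50. Members listed in NCT only numbered 19, against 3 with at least 20 reads and 2 with at least 50. Without members that share 16 nt with an entry of the other library, 22 and 18 remained. The 23 nt median log2 was 1.21 over the 2 members with at least 20 reads. Depth limits most members, since 38 of 55 stayed under 20 reads. No paired analysis was possible because CT and NCT are single libraries.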

Other observations

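The 22 nt members had a median GC content of 50% (27.3% to 72.7%), and the 23 nt members 43.5% (26.1% to 65.2%), beside 47.6% over the whole table. The last base was U in 12 of 28 members of 22 nt (42.9%) and in 11 of 27 of 23 nt (40.7%). It was U in 88 of 299 entries of the whole table (29.4%) and in 47 of 184 of the 21 nt entries with at most 1 precursor (25.5%). The difference was not tested. Novel_mir_262, a 23 nt member with 18 reads in CT and not listed in NCT, repeats a unit of 6 nt along its length. Hairpins of 44 members were not located here.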
